A study of Brassica napus with 22 samples.

Results

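AGL62 (AT5G60440), AGL61 (AT2G24840), AGL40 (AT4G36590), AGL28 (AT1G01530) and AGL23 (AT1G65360) are Arabidopsis genes of the M-alpha branch of the type I MADS-box transcription factors. Their Brassica napus copies were taken as every gene of the deposited table whose best Arabidopsis protein match is one of these 5 loci, whatever its level. This gave 27 of 101040 genes, of which 17 matched AGL62, 9 matched AGL61 and 1 matched AGL40, while 0 matched AGL28 or AGL23. Seeds of oilseed rape (B. napus) cultivar Topas were profiled by RNA-seq at the globular stage, an early stage at which the embryo is still round. Tissues cut out by laser and formed by fertilisation were the embryo proper (2 libraries) and 3 regions of endosperm, namely peripheral (2), chalazal (3) and micropylar (4). Those of the mother plant were the outer (2) and inner (3) seed coat and the proliferating tissue at the chalazal end (3), and whole seeds gave 3 further libraries.

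The table holds 1 column per group, so the spread between libraries is not known and no difference below carries a test. Values are FPKM, read counts scaled for transcript length and library size, rounded to whole numbers, so a value of 1 or 2 is coarse. They are scaled for length and can be compared between genes. Fewer cells of a type and less RNA per cell cannot be told apart in such columns.

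Type I MADS proteins act in the female gametophyte and the endosperm, the nourishing tissue that grows beside the embryo after fertilisation. In Arabidopsis, AGL62 holds the young endosperm in its syncytial phase, in which nuclei divide without cell walls, and seeds that lack it cellularise early and abort. The Polycomb complex FIS-PRC2 is known to switch AGL62 off as cellularisation begins, and AGL62 is needed for auxin to leave the endosperm and start seed coat growth. AGL61, also called DIANA, acts in the central cell, the gamete that gives rise to the endosperm, together with the M-gamma protein AGL80. AGL40 is a close relative of AGL62.

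AGL62 transcripts lay almost wholly in the peripheral and chalazal endosperm. Summed over its 17 copies, the AGL62 level was 1096 FPKM in the peripheral endosperm and 1339 FPKM in the chalazal endosperm. Elsewhere it was 24 (micropylar endosperm), 19 (inner seed coat), 3 (embryo proper) and 2 in each of the other 3 columns. The order of the leading 2 regions depends on scaling: they were 1507 and 1227 after scaling to a common median (of genes), and 964 and 659 after scaling to a common sum that leaves out ribosomal and organelle RNA. It also depends on which matches are counted. The A07 and C04 copies, which neighbouring genes place with the AGL40 copy (below), gave 135 FPKM of the peripheral and 488 of the chalazal sum. Without them the peripheral sum is the larger one before any rescaling. AGL40, in its single copy BnaA04g16540D, was at 93 FPKM in the peripheral endosperm, 52 in the chalazal endosperm and 0 in each other column. AGL61 summed to at most 4 FPKM in any column.

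**Figure D1:**
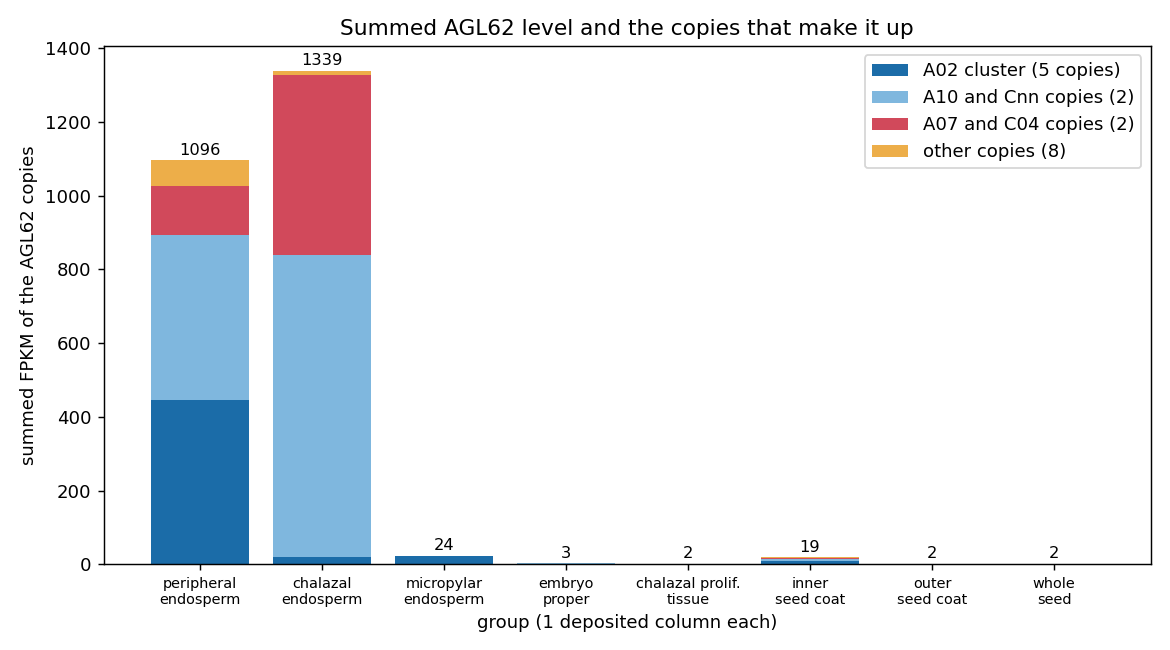
Bars give the summed FPKM of the 17 AGL62 copies in each of the 8 deposited columns, split by the copies that contribute, with the sum above each bar. The peripheral (1096) and chalazal (1339) endosperm stand far above the other 6 columns, which hold 2 to 24.

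The copies were not alike. Of the 27, 9 were listed at 0 in all 8 columns, 7 reached 1 to 4 FPKM at most, and 11 reached 5 FPKM or more in a compartment. Those 11 comprise 10 AGL62 copies and the AGL40 copy. Of them, 7 were highest in the peripheral endosperm and 4 in the chalazal endosperm, and 0 in any other compartment. Among all 41502 genes at that level, 9.77% were highest in peripheral and 12.5% in chalazal endosperm. Outside the 3 endosperm regions, the highest value of any copy in any column was 4 FPKM.

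**Figure D2:**
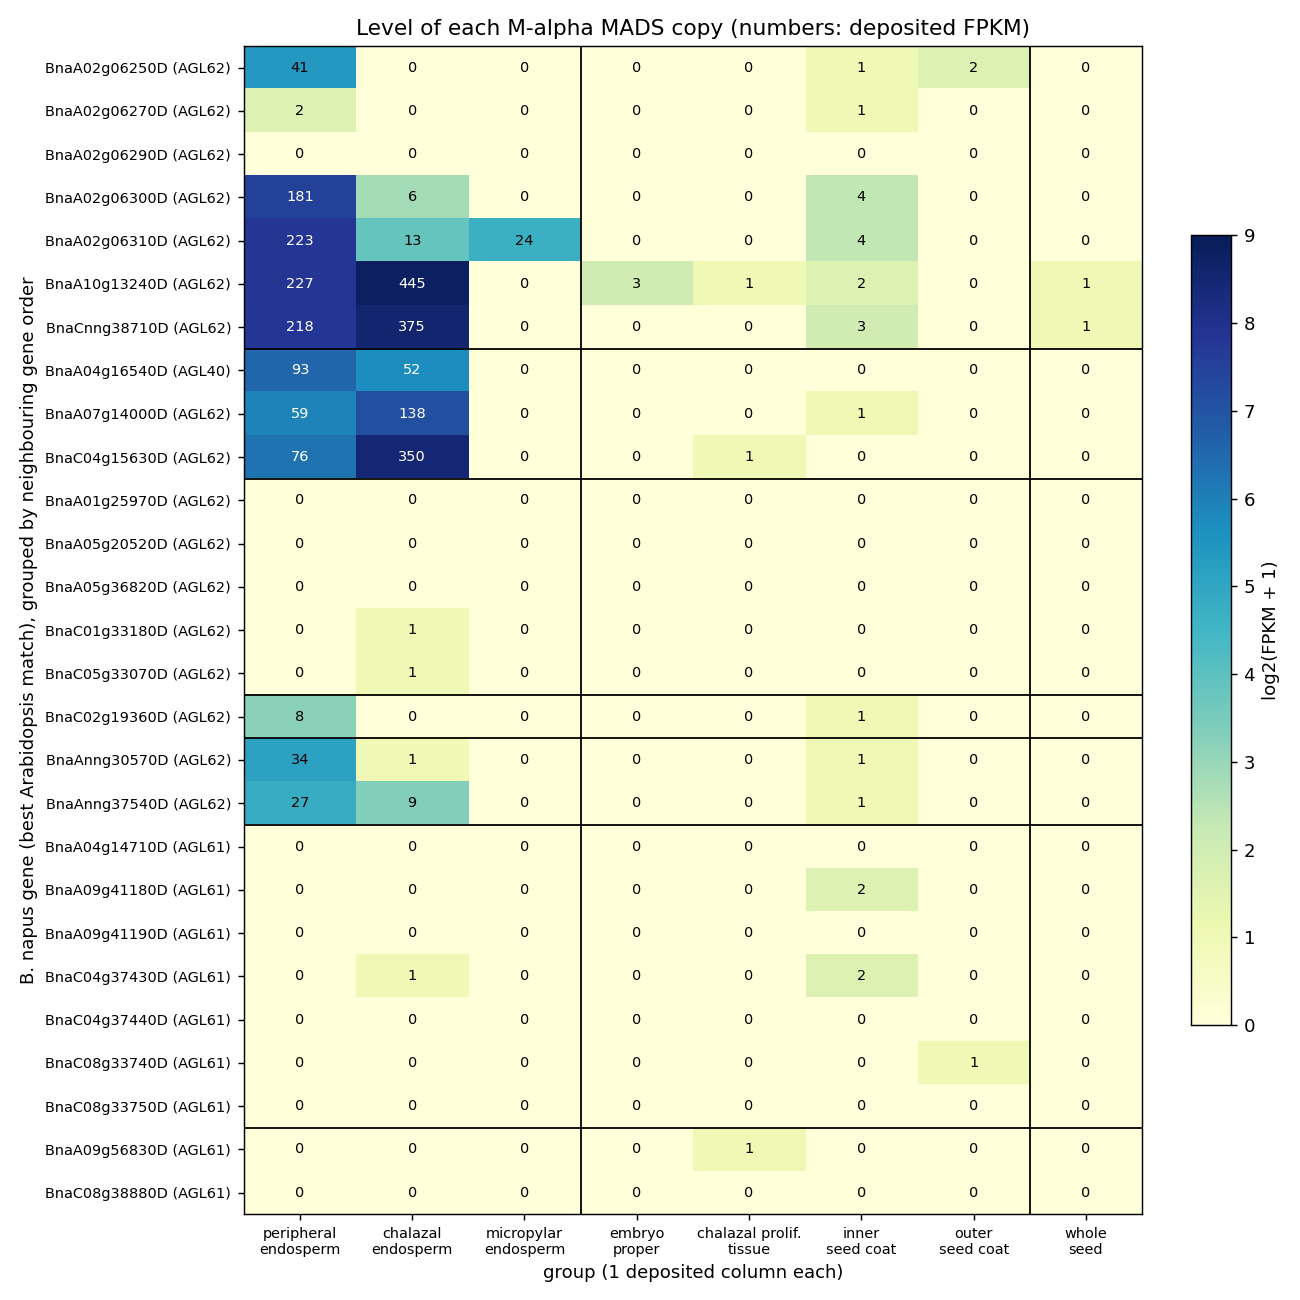
Each row is one of the 27 copies and each column a group, with the deposited FPKM printed in the cell and the colour showing log2(FPKM + 1). Horizontal lines part copies by the Arabidopsis gene order around them, from the top: the order of AGL62 itself, the AT2G28 stretch, the AT3G19 stretch, the AT1G69 stretch, no shared order, the order of AGL61 itself and the AT1G15 stretch.

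The genes next to each copy were used to sort the copies, since Brassica chromosomes keep long runs of the Arabidopsis gene order. The 10 genes on either side were read for their own best Arabidopsis matches. For 7 AGL62 copies, neighbours matched loci beside AGL62 itself, between AT5G60300 and AT5G60700. They are the 5 copies of a cluster on chromosome A02 (3001735 to 3024467, a span of 22.7 kb), BnaA10g13240D on A10 (10723325 to 10724508) and BnaCnng38710D on an unplaced C sequence (37386685 to 37387873). The last shows only 3 such neighbours. Sequence not placed on a chromosome was read in the same way, so neighbours there may not be adjacent in the genome. Of these 7 copies, 5 reached 20 FPKM.

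A second stretch, AT2G28430 to AT2G28760, surrounded 3 copies, all of which reached 20 FPKM. These are the AGL62-matching BnaA07g14000D on A07 (12442048 to 12443652) and BnaC04g15630D on C04 (13480496 to 13481951), and the AGL40-matching BnaA04g16540D on A04 (13522340 to 13523454). The first pair shares 8 neighbouring Arabidopsis loci, and BnaA04g16540D shares 7 with BnaA07g14000D and 3 with BnaC04g15630D. The 3 genes are also close in length, at 672 to 720 bases. A best match to AGL62 or AGL40 therefore parts genes that the order of their neighbours puts together.

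Another stretch, AT3G19440 to AT3G19830, held 5 AGL62 copies that were all at or near 0. BnaA01g25970D, BnaA05g20520D and BnaA05g36820D were listed at 0 in all 8 columns, and BnaC01g33180D and BnaC05g33070D reached 1 FPKM, in the chalazal endosperm. These are gene models of 591 to 852 bases, within the range of the copies with high levels. BnaA01g25970D and BnaC01g33180D have the same length, 831 bases, and share 13 neighbouring loci. The remaining 3 copies were BnaC02g19360D beside AT1G69 loci, and BnaAnng30570D and BnaAnng37540D on unplaced A sequence, both of 375 bases.

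Levels within the A02 cluster ranged from 0 to 223 FPKM. BnaA02g06310D, at its end, had 223 FPKM in peripheral, 24 in micropylar and 13 in chalazal endosperm, 4 in the inner seed coat and 0 in the other 4 columns. It is the one copy of the 27 with any value in the micropylar endosperm. BnaA02g06300D had 181 FPKM in peripheral and 6 in chalazal endosperm, 4 in the inner seed coat and 0 elsewhere. BnaA02g06250D had 41 in the peripheral endosperm, 2 in the outer and 1 in the inner seed coat, and 0 elsewhere. The shorter models between them were low: BnaA02g06270D, of 432 bases, reached 2 FPKM and BnaA02g06290D, of 306 bases, was at 0 throughout. The 3 copies of the cluster that passed 5 FPKM were thus all highest in the peripheral endosperm. The models that alternate with them, BnaA02g06260D and BnaA02g06280D, match ARF4, an auxin response factor that neighbours AGL62 in Arabidopsis, and reached at most 1 FPKM.

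The A10 and Cnn copies formed the most abundant pair. BnaA10g13240D had 445 FPKM in chalazal and 227 in peripheral endosperm, 3 in the embryo proper, 2 in inner seed coat, 1 in chalazal proliferating tissue, 1 in the whole seed and 0 in the remaining columns. BnaCnng38710D had 375 FPKM in chalazal and 218 in peripheral endosperm, 3 in inner seed coat, 1 in the whole seed and 0 in the other 4 columns. Both are 840 bases long and were close in level in each column. They share 1 neighbouring locus, a count that the unplaced position of BnaCnng38710D limits. They were the 613th and 652nd most abundant genes of 100447 in the peripheral endosperm, and the 417th and 477th in the chalazal endosperm.

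Chalazal levels were highest relative to peripheral ones in the AT2G28 group. BnaC04g15630D had 350 FPKM in chalazal and 76 in peripheral endosperm, 1 in chalazal proliferating tissue and 0 elsewhere. BnaA07g14000D had 138 and 59 in the same regions, 1 in the inner seed coat and 0 elsewhere. The AGL40 copy of the same stretch leaned the other way, with 52 against 93 FPKM.

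The smaller copies were all highest in the peripheral endosperm. BnaAnng30570D had 34 FPKM there, 1 in chalazal endosperm, 1 in the inner seed coat and 0 elsewhere. BnaAnng37540D had 27, 9, 1 and 0 in the same order. BnaC02g19360D had 8 in the peripheral endosperm, 1 in the inner seed coat and 0 elsewhere. This last copy is 961 bases long, as is BnaA02g06250D of the A02 cluster with 41 FPKM, but the pair shares 0 neighbouring loci.

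AGL61 was near or at 0 in every column. Its 9 gene models are short, from 144 to 507 bases, and 5 were listed at 0 throughout. The values above 0 were 2 FPKM for BnaA09g41180D and 2 for BnaC04g37430D in the inner seed coat, 1 for BnaC04g37430D in chalazal endosperm, 1 for BnaC08g33740D in the outer seed coat and 1 for BnaA09g56830D in chalazal proliferating tissue. Of the 9 models, 6 form adjacent pairs with gaps of 50 bases on A09, 50 on C08 and 59 on C04, each pair matching AGL61. Neighbours of 7 models lie in the AGL61 order, AT2G24630 to AT2G25260. BnaA09g56830D and BnaC08g38880D instead sit in the AT1G15 stretch, share 13 neighbouring loci and reached at most 1 FPKM. Rounded values of this size do not show whether AGL61 is transcribed.

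The 3 endosperm regions were compared with the other 4 compartments to ask how far the copies are confined to endosperm. Calls of higher and lower required that the mean log2(FPKM + 1) of a gene differed by at least 1 between the sides and that the higher side had a mean of at least 5 FPKM, a rule of size with no error rate. Of the 27 copies, 13 passed the filter of 1 FPKM in at least 2 of the 8 columns. Endosperm columns count in that filter, and most of the copies that passed needed them. Only BnaA02g06250D, BnaA10g13240D and BnaCnng38710D reached 1 FPKM in at least 2 columns outside the endosperm regions. The AGL40 copy had values in endosperm columns alone. Being higher in endosperm is thus partly built into which copies were compared. By the rule of size 10 copies were higher in endosperm, 9 of AGL62 and 1 of AGL40, and 0 were lower, with 3 of those that passed the filter neither. No lower call was possible under the floor of 5 FPKM, since no copy passed 4 FPKM outside endosperm. Of the 54278 genes compared, 11.2% were higher and 15.9% lower. The differences of the 10 ran from 1.15 log2 in BnaA02g06250D to 4.94 in BnaCnng38710D, beside a median of -0.25 over all genes. BnaA02g06250D fell short of the rule with a pseudocount of 0.1 (0.93 log2), with the common sum (0.94) and without the embryo proper (0.94). In 10 copies the highest endosperm value was at least 20 FPKM and over 4-fold above every other compartment, as in 6.52% of compared genes. That ratio was lowest in BnaA02g06250D, at 20.5-fold, and reached 350-fold in BnaC04g15630D, where the next compartment is at 1 FPKM. No ratio can be given for AGL40, which was listed at 0 in all 4 other compartments.

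Chalazal and peripheral endosperm shared out the AGL62 copies differently. The A02 cluster held 40.8% of the summed AGL62 level in the peripheral endosperm and 1.42% in the chalazal endosperm. The A10 and Cnn pair held 40.6% and 61.2%, and the A07 and C04 pair 12.3% and 36.4%. By subgenome, A copies held 72.4% of the sum in peripheral and 45.7% in chalazal endosperm. No common factor per column changes these shares, but quantile normalisation would, and they depend on how reads that match several copies were assigned, which is not given in the sources used here.

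Between chalazal and peripheral endosperm, the rule of size put 2 copies on the chalazal and 6 on the peripheral side, while 8.60% of all compared genes were higher and 11.4% lower. Those higher were BnaC04g15630D, at 4.61-fold, and BnaA07g14000D, at 2.34-fold. BnaA10g13240D at 1.96-fold and BnaCnng38710D at 1.72-fold missed the rule. Those lower were BnaA02g06250D, BnaA02g06300D, BnaA02g06310D, BnaAnng30570D, BnaAnng37540D and BnaC02g19360D. Peripheral levels exceeded chalazal ones by 30.2-fold in BnaA02g06300D and 17.2-fold in BnaA02g06310D. The chalazal to peripheral ratio of BnaC04g15630D was 139 times that of BnaA02g06300D, a contrast that no common factor per column can change, and 75.5 times under quantile normalisation.

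Single calls do depend on such factors. The common median shifted the typical gene by -0.31 log2 and the common sum shifted it by -0.42, taken as the median over all genes. The difference of BnaA07g14000D then went from 1.21 log2 to 0.63 and 0.38, below the rule. BnaC04g15630D stayed above it at 1.61 and 1.35 log2, from 2.19. BnaCnng38710D went from 0.78 to 0.20 and -0.05, a change of direction under the common sum. AGL40 (BnaA04g16540D) went from -0.83 log2 to -1.40 and -1.64, past the rule on the peripheral side.

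**Figure D3:**
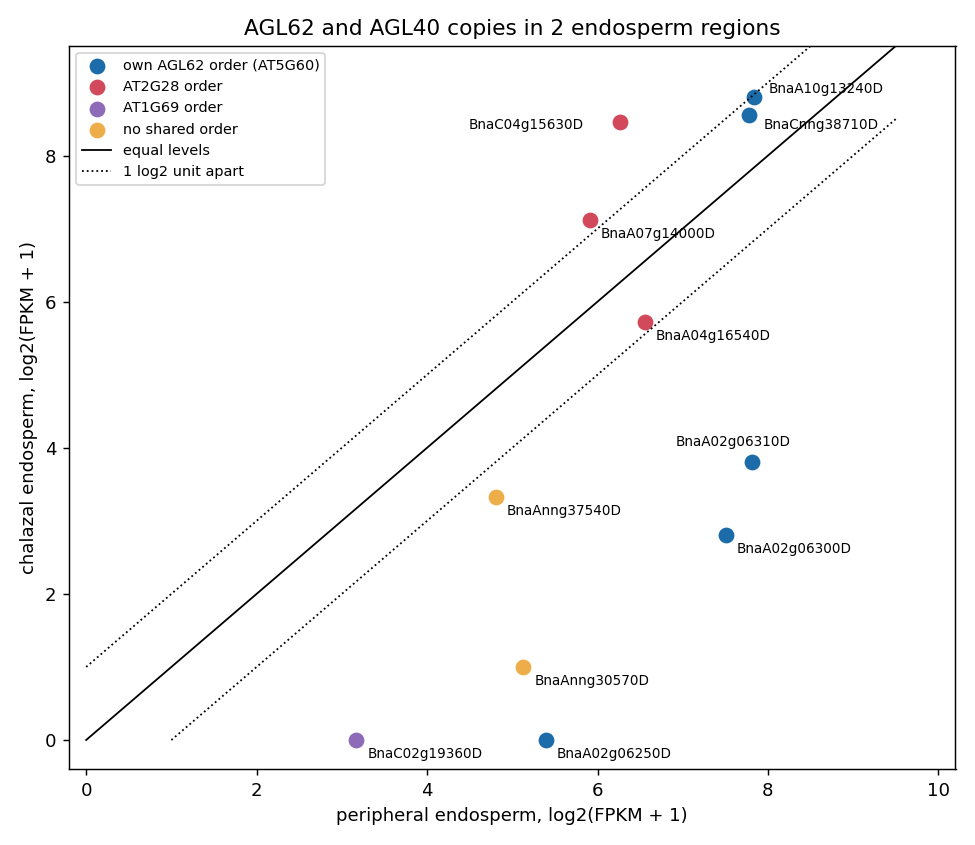
Points are the 11 copies at 5 FPKM or more, placed by log2(FPKM + 1) in the peripheral (x axis) and chalazal (y axis) endosperm and coloured by the Arabidopsis gene order around them. The A02 cluster lies low on the right, at 0 to 13 FPKM in the chalazal endosperm, while the A10, Cnn, A07 and C04 copies lie above the line of equal levels.

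The micropylar endosperm all but lacked these transcripts. Of the 10 copies at 20 FPKM or more in the peripheral endosperm, 9 were listed at 0 in the micropylar endosperm, as were 17.0% of the 7425 genes at that level. Among 469 genes with an endosperm-limited pattern (20 FPKM or more in both peripheral and chalazal endosperm and at most 2 in embryo proper, outer seed coat and chalazal proliferating tissue), the share at 0 was 53.3%. The 469 include only 4 of the copies, so here and below they overlap with the 10 but are not matched to them. Against the peripheral endosperm, 0 copies were higher and 11 lower in the micropylar endosperm, where 19.3% of all compared genes were higher and 19.2% lower. Against the chalazal endosperm, 0 were higher and 7 lower, beside 20.8% and 18.3% of all genes. BnaA02g06310D, with 24 against 13 FPKM, missed the rule in that last comparison and passed it under the common sum, at 1.89 log2. The pairwise comparisons share their columns and are not independent of each other.

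Several measures set the micropylar column apart. Ribosomal and organelle genes took 36.9% of its FPKM, against 11.0% in peripheral and 4.16% in chalazal endosperm, and 30527 genes were detected at 1 FPKM there, the fewest of the 8 columns. Endosperm markers (28 copies of ZOU, MINI3, IKU2, FIS2 and PHE1) summed to 785 FPKM in the micropylar, 764 in peripheral and 388 in chalazal endosperm and to at most 10 in the other columns, with IKU2 at 0 in all 8 and ZOU at 0 in the chalazal endosperm. The markers differed in this: MINI3 gave 705 of the 785 FPKM in the micropylar column, where BnaAnng25430D had 360 and BnaC03g77690D 225. PHE1 instead summed to 2 FPKM there, against 123 in peripheral and 265 in chalazal endosperm, while FIS2 summed to 20, 23 and 22. Vascular markers (14 copies) summed to 317 in the micropylar endosperm and to at most 18 in the other compartments. PP2-A1 gave 265 of the 317, APL 27 and SUC2 25, while SUC2 also had 17 in the inner seed coat. Embryo markers (23 copies) summed to 123 in the micropylar endosperm against 723 in the embryo proper, and to at most 15 elsewhere among the compartments. Their loci differed: in the micropylar endosperm FUS3 and WOX2 were at 0, against 57 and 92 in the embryo proper. LEC1 had 35 against 274 and MP 26 against 261, while LEC2 was higher in the micropylar endosperm, at 62 against 39. Seed coat markers (29 copies) summed to 67, 83 and 132 FPKM in the micropylar, peripheral and chalazal endosperm, and to 239 to 1926 in maternal tissue. TT4 gave 43, 73 and 116 of the endosperm sums. It had 87 in the chalazal proliferating tissue and 62 and 151 in the inner and outer seed coat. TT12, GL2 and TT2 were at 0 or 1 in each endosperm region, and TT16 gave 1768 of the 1926 in the chalazal proliferating tissue. The part of these measures in the low AGL62 level was not tested.

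Low values also appeared in the inner seed coat. Of the 10 copies at 20 FPKM or more in the peripheral endosperm, 8 had 1 to 4 FPKM there, and over all AGL62 copies the sum was 1.73% of the peripheral one. For the endosperm markers that share was 1.31%. Of the 469 endosperm-limited genes, 65.7% had at least 1 FPKM in the inner seed coat, at a median of 1.07% of the peripheral level. Whether this is transcription in the inner seed coat was not tested.

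In the whole seed, BnaA10g13240D and BnaCnng38710D were at 1 FPKM and every other copy at 0. Thus 8 of the 10 copies at 20 FPKM or more in the peripheral endosperm were listed at 0, as were 10.7% of all genes at that level and 48.4% of the 469 endosperm-limited genes. The whole seed column also differs in make-up. Ribosomal and organelle genes took 0.0076% of its FPKM, against 4.16% to 36.9% in the compartments, and its summed FPKM, 655846, was the lowest of all columns. The part of this in the low values was not tested.

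Beside the 11 copies at 5 FPKM or more, each immediate neighbour that is not itself a copy was below 20 FPKM in the peripheral endosperm. BnaA10g13240D lies beside BnaA10g13230D, a zinc finger gene at 2 to 8 FPKM in all 8 columns, and BnaA10g13250D, at 7 FPKM in the inner seed coat and 0 elsewhere. BnaA04g16540D lies beside BnaA04g16530D, highest in the embryo proper at 24 FPKM. The exception in chalazal endosperm was BnaA07g14010D, annotated as a major facilitator superfamily transporter and next to BnaA07g14000D, with 135 FPKM there, 2 in the peripheral endosperm and 0 elsewhere. It was singled out after its values were seen.

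The genes most like BnaA10g13240D over the 7 compartments, by Pearson's r of log2(FPKM + 1), included another MADS-box gene. The closest was BnaAnng02950D (r = 0.99), whose best match AGL46 (AT2G28700) lies within the AT2G28 stretch, with 38 FPKM (chalazal) and 18 (peripheral). A UDP-glucosyl transferase 71C3 homolog, BnaA09g55800D, was at 188 and 59 FPKM, a subtilase gene, BnaA02g07430D, at 67 and 32, a gene of unknown function, BnaC02g37080D, at 50 and 23, and a pectin lyase-like gene, BnaC08g20620D, at 151 and 71. Of 20410 genes that reached 20 FPKM in a compartment, 303 had r of at least 0.95. Among the members themselves, r with BnaA10g13240D was 0.98 for BnaCnng38710D and BnaA07g14000D, 0.97 for BnaC04g15630D and the AGL40 copy, 0.93 for BnaAnng37540D, 0.79 for BnaA02g06300D, 0.70 for BnaAnng30570D, 0.64 for BnaA02g06310D and 0.45 for BnaA02g06250D. Most points are at or near 0 and all share the same 7 columns, so these values only describe likeness. Closest to the AGL40 copy was BnaA06g31410D, a P-loop nucleoside triphosphate hydrolase gene at 53 and 31 FPKM in the peripheral and chalazal endosperm and 0 in the other compartments. The next were BnaC09g09480D, BnaA09g42930D, BnaA10g28380D and BnaC05g13110D, which had 20 to 49 FPKM in peripheral and 13 to 28 in chalazal endosperm, and 332 genes reached r of 0.95.

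M-gamma genes, which encode the known partners of M-alpha proteins, were also mostly higher in endosperm. Of 42 copies from 10 of 16 loci, 35 passed the filter, 26 were higher in the endosperm regions and 0 lower, although 1 was lower with a common median and without the micropylar endosperm, and 2 with a common sum. The median difference of those that passed was 2.33 log2, beside -0.25 over all genes. Over all compared genes, 11.2% were higher and 15.9% lower. The AGL87 copy BnaA07g10380D had 134, 121 and 19 FPKM in the peripheral, chalazal and micropylar endosperm, and the AGL35 copy BnaA06g28250D had 175, 317 and 5. The AGL96 copy BnaA10g30590D had 126, 14 and 222 FPKM, most of it in the micropylar endosperm. The AGL96 copy BnaC09g49060D had 7, 1026 and 18. AGL80, the partner of AGL61 in the Arabidopsis central cell, was at 48 FPKM in BnaA05g31430D and 18 in BnaC05g45960D in the peripheral endosperm, against 9 and 2 in the chalazal endosperm. The other 3 AGL80 copies had 0 or 1 FPKM in every endosperm region. Of these, BnaC02g26190D had 9 FPKM in the embryo proper, BnaAnng16690D had 9 in the outer seed coat, and BnaA02g21200D reached 1 at most.

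Other M-alpha genes were low apart from AGL91. Of 44 copies from 12 of 19 loci, 24 were listed at 0 in all 8 columns and 9 reached 5 FPKM in a column. In all, 12 passed the filter, with a median difference of 0.27 log2. Of these, 4 were higher in endosperm and 0 lower, beside 11.2% and 15.9% of all compared genes. With a common sum 1 was lower. The AGL91 copies led, with 459 FPKM (peripheral) and 535 (chalazal) for BnaA03g29530D, and 299 and 96 for BnaCnng32170D. The AGL57 copies BnaC09g06190D and BnaA09g52420D had 12 and 24 FPKM in the peripheral endosperm.

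Genes of the FIS-PRC2 subunits MEA, FIS2, FIE and MSI1 gave 7 higher, 2 lower and 8 neither among the 17 of 25 copies that passed the filter, beside 11.2% higher and 15.9% lower over all compared genes. Their median difference was 0.86 log2. The count is over subunits and does not give the level of the complex that represses AGL62. FIS2 was at 11 FPKM in BnaC04g09410D and 12 in BnaA05g08350D in the peripheral endosperm, and 11 in both in the chalazal endosperm. These copies had 14 and 6 in the micropylar endosperm and 0 in each other column. The FIE copy BnaA01g25550D had 28, 49 and 20 FPKM in the same order. The MSI1 copy BnaA02g07770D had 50, 7 and 0. By the rule, the MSI1 copies BnaC03g12490D and BnaA03g09860D were lower in endosperm, at 5 FPKM in the peripheral endosperm against 38 and 24 in the embryo proper. In the micropylar endosperm BnaC03g12490D had 18 FPKM, above its 11 in the outer seed coat, while BnaA03g09860D had 2 and 19.

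Endosperm auxin genes, 4 synthesis loci and the transporter ABCB10, gave 6 higher, 0 lower and 4 neither among 10 of 18 copies that passed, with a median of 1.49 log2. For these and the growth genes below, the shares over all compared genes were 11.2% higher and 15.9% lower. TAR1, an aminotransferase of auxin synthesis, was at 120 and 128 FPKM in the peripheral and chalazal endosperm in BnaA09g31200D, at 31 and 63 in BnaC05g18610D and at 70 and 19 in BnaA09g31180D, and at 0 in the micropylar endosperm in each. YUC10, the enzyme of the next step, was at 4 and 70 FPKM in BnaA06g03450D. The remaining 2 higher copies match TAA1, an aminotransferase like TAR1, and had their highest value in the embryo proper. BnaA02g14990D had 37 FPKM there and 4, 30 and 4 in peripheral, chalazal and micropylar endosperm, and BnaC02g19980D had 31 there and 1, 3 and 17. Both copies of ABCB10 were at 0 or 1 FPKM in every column. Growth and cellularisation genes gave 15 higher, 0 lower and 12 neither among 27 of 47 copies that passed, at a median of 1.57 log2, with 1 lower without the micropylar endosperm. Most of the higher copies matched the WRKY factor MINI3, and the others TFL1 or ZOU. No copy of the listed loci IKU1, IKU2, SHB1, ICE1 or EDE1 was higher, so the count mainly describes MINI3. The leading copies were of MINI3, with 231, 40 and 14 FPKM in the peripheral, chalazal and micropylar endosperm in BnaCnng39890D, 42, 14 and 28 in BnaA05g13660D, 3, 9 and 225 in BnaC03g77690D, and 51, 1 and 16 in BnaC06g11020D.

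**Figure D4:**
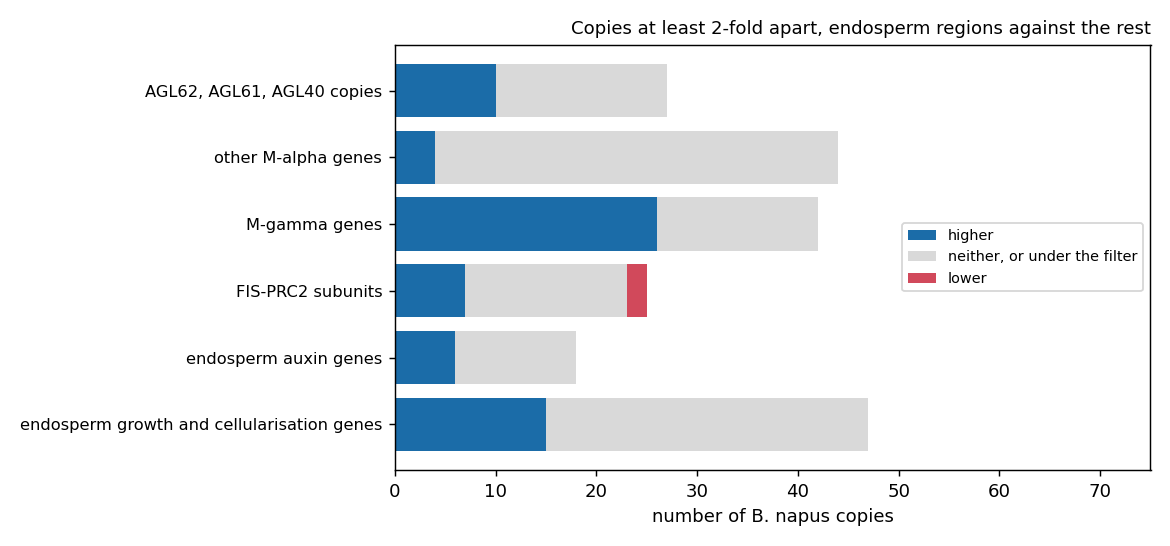
Bars count the B. napus copies of each gene list, split into those higher, lower or neither in the 3 endosperm regions against the other 4 compartments by the rule of size. Of the copies that passed the filter, 10 of 13 AGL62, AGL61 and AGL40 copies and 26 of 35 M-gamma copies were higher. Over all compared genes, 11.2% were higher and 15.9% lower. Grey also holds copies under the filter.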

How the data were processed

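Gene levels of 8 groups were read from 1 table. Per the labels, a reagent from Ambion and a NuGen Ultralow kit were used, and the submitters' processing notes name Trimmomatic 0.36, HISAT2 and Cufflinks without roles or settings. The genome build is not given in the sources used here. Deposited starts were moved by 1, because 17707 genes have a length of end minus start and 0 have 1 more. The deposited values are a score: FPKM that the authors rounded to whole numbers (100% of values), as 1 value per group of 2 to 4 libraries, combined in a way that is not stated. No unit is named for the whole seeds, which were read as FPKM too. Read depth is unknown, so no interval could be given. Another 1 column of FPKM matched no sample and was not used, and 593 genes without compartment values were left out.

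Differences are of mean log2(FPKM + 1) over 54278 genes at 1 FPKM or more in 2 columns. The planned limma test needs library columns and was replaced by the rule of size. Members and lists were chosen with earlier results of these data known. Gene symbols are those of the best Arabidopsis match. All members were named or counted, and of each list up to 4 copies with the largest difference and every copy lower. Further list copies (AGL80, ABCB10, TAA1) and the gene order groups were chosen after the values were seen. Likeness was not computed for AGL61, which reached at most 2 FPKM in a copy. Gene order was read from 10 genes on each side, and a stretch is the run of 60 Arabidopsis loci that holds most of them. The code recovered known folds planted in abundant genes of simulated data with an assumed noise. It was not checked on values near 0 or on the unknown spread between libraries. Alternatives were a pseudocount of 0.1, other filters and scalings, no floor of 5 FPKM, and leaving out the micropylar or embryo column. Tools were pandas 2.3.3 and numpy 2.4.6 under Python 3.11.15, with plots by matplotlib 3.10.9.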

Additional observations from a re-analysis of the deposited data

How the results depend on the processing

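No paired analysis was possible because the table holds 1 column per group, and for the same reason no replicate could be left out. The count of 10 copies higher in endosperm was 8 to 10 under the 9 alternatives run, and 0 were lower in each. As no copy passed 4 FPKM outside endosperm, no lower call was possible wherever the floor of 5 FPKM applied. Over all genes that comparison gave 6103 higher and 8629 lower, against 4143 and 13994 under a common sum, which shifted the median gene by -0.33 log2. Between chalazal and peripheral endosperm, 2 copies higher became 1 with a common median and 1 with a common sum, and 6 lower became 3 with a filter of 5 FPKM in 2 columns, which leaves out copies that reach 5 FPKM in 1 column alone. Over all genes 4669 higher and 6210 lower became 2427 and 10172 with a common median, 1705 and 9496 with a common sum, and 7227 and 14420 without the floor. Between micropylar and peripheral endosperm, 10496 higher and 10429 lower became 5290 and 16170 with a common median, a shift of -0.86, and 21588 lower without the floor. Between micropylar and chalazal endosperm, 0 copies higher became 1 with a common sum, and 11300 higher and 9922 lower of all genes became 7294 and 10579 with a common median, 15230 and 4485 with a common sum, and 17849 lower without the floor. The AGL40 chalazal to peripheral ratio went from -0.84 log2 to -1.42 with a common median and -1.68 with a common sum. Lower copies went from 0 to 1 for other M-alpha genes with a common sum; for M-gamma genes to 1 with a common median, 2 with a common sum and 1 without the micropylar endosperm; and for growth genes to 1 without it. Causes were not tested.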

Other observations

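Some type I MADS copies were highest outside the endosperm. Of the M-gamma list, 2 AGL96 copies were highest in the chalazal proliferating tissue: BnaA10g24010D had 145 FPKM there, 40 in the whole seed, 18 in the inner seed coat, 10 in the chalazal and 6 in the peripheral endosperm, and BnaC09g48630D had 99, 27, 11, 2 and 3, with 14 in outer seed coat and 29 in micropylar endosperm. Of other M-alpha genes in the embryo proper, the AGL84 copy BnaA04g06200D had 14 FPKM against at most 2 in any other column, and the AGL57 copy BnaA05g37450D had 11 against at most 2. These copies were picked after their values were seen, and with 1 column per group they have no replicate check.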
